A study of Homo sapiens with 78 samples.

Results

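Antigen presentation by MHC class I was examined through 9 genes: the heavy chain genes HLA-B, HLA-C, HLA-E and HLA-F, the light chain gene B2M, the peptide transporter genes TAP1 and TAP2, the tapasin gene TAPBP and the transactivator gene NLRC5. They were chosen by name, and for each one the estimated counts and the TPM (transcripts per 1000000, a level per unit of transcript length) of its Ensembl transcripts that could be matched by identifier were summed in every well, so that 9 of 58388 genes in the tables were followed. The libraries are total RNA libraries of 78 single cells, 1 cell per well, from 2 human cell lines and 2 reagent kits. The cells were A375, an adherent melanoma line, and Jurkat (clone E6-1), a T cell leukaemia line. A375 was grown in DMEM and Jurkat in RPMI medium, both with serum, and no treatment is named. A375 cells were stained for CD47 and sorted into PBS, whereas Jurkat cells were stained for CD81 and sorted into lysis solution. Cell line, medium and sorting condition therefore cannot be told apart. There were 21 A375 wells and 18 Jurkat wells with kit #634413 (SMARTer Stranded Total RNA-Seq v2, Pico Input) and the same numbers with kit #634444 (SMART-Seq Stranded).

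Class I molecules carry short peptides from inside the cell to its surface, where T cells and NK cells read them. The proteasome cuts proteins into peptides, the transporter made of TAP1 and TAP2 pumps them into the endoplasmic reticulum, tapasin holds the empty heavy chain next to the transporter, and the light chain beta-2-microglobulin is needed for a stable complex. NLRC5 drives transcription of class I heavy chain genes, B2M and some other genes of this pathway through a shared promoter module, and interferon raises them further. Melanoma cells are known for losing parts of this pathway, while T cells usually carry it at a high level.

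Total counts per well ranged from 909 to 2567265, and 9 A375 wells and no Jurkat well held under 25% of the median total of 813697. Levels are therefore described in the other 69 wells, called deep wells here, and sums were made over all 78 wells and again over the deep wells. Of the deep wells, 67 held at least 100000 protein coding counts, and replicates 8 and 11 of A375 #634413 did not. The labels were checked against markers in the deep wells. The summed CPM (counts per 1000000 counts outside the rDNA unit) of 9 T cell genes lay between 916 and 2719 in Jurkat and between 0 and 62.7 in A375, where CD3D, CD3E and CD2 had 0 counts with both kits. That of 10 melanoma genes lay between 83.4 and 3328 in A375 and between 0 and 58.1 in Jurkat, where PMEL and DCT had 0 counts. Lists of 3 or 4 markers of B cells, myeloid cells, NK cells, fibroblasts and endothelium had a median of at most 22.8 CPM in each group, except the endothelial list in Jurkat (179 and 121 CPM), of which VWF had 0 counts; the part of these markers in the results was not tested. Each library is 1 cell and no separate cultures are named, so a group counts as 1 sample. No test was possible, all differences are descriptions of these libraries, and the 95% intervals cover counting error only.

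In the genome (GRCh38), the members on chromosome 6 lie in the MHC region. HLA-F is at chr6:29722775-29738528, HLA-E at chr6:30489509-30494194, HLA-C at chr6:31268749-31272130, HLA-B at chr6:31353872-31367067, TAP2 at chr6:32821833-32838739, TAP1 at chr6:32845209-32853816 and TAPBP at chr6:33299694-33314284. B2M is at chr15:44711358-44718851 and NLRC5 at chr16:56989485-57083531. The members have 87 targets in the tables, from 3 for HLA-E, TAP1 and TAP2 to 28 for NLRC5.

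The promoters of HLA-B, HLA-C, B2M and TAP1 are shown because NLRC5 and interferon act on genes of this pathway. RefSeq windows (GRCh38.p14) of 250 bases before to 50 bases after the start were available for 7 members, and there was no entry for HLA-E and NLRC5. The 250 bases before the start are printed below for 4 genes, on the strand of the gene, with matches to 5 motifs in capitals: CCAAT (the site read by the factor NFY), TGACG (the core read by CREB and ATF factors), GGGGATTCC (an NF-kB site), GAAANNGAA (an interferon response core) and GGGCGG (an Sp1 box), each searched on both strands.
HLA-B (chr6:31357180-31357429, minus strand): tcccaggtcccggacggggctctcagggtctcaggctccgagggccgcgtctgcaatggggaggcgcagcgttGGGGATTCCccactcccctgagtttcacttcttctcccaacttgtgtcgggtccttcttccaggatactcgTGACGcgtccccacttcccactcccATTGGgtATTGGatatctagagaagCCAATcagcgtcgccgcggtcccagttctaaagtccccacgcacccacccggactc
HLA-C (chr6:31272093-31272342, minus strand): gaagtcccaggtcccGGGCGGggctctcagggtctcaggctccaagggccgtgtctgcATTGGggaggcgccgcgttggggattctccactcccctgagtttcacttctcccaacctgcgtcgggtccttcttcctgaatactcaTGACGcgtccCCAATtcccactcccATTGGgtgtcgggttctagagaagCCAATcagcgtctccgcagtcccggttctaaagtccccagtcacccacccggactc
B2M (chr15:44711267-44711516, plus strand): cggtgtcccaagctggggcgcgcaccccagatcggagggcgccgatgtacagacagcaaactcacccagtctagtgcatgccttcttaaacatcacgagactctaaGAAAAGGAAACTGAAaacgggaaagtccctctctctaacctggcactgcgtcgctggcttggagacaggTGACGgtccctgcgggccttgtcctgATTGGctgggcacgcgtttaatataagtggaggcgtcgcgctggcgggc
TAP1 (chr6:32853705-32853954, minus strand, the first of 2 starts): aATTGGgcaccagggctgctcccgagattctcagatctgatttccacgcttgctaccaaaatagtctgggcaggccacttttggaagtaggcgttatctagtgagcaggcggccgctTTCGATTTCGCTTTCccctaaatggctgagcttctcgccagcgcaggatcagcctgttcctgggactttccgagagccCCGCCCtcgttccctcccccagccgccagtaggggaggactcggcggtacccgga

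HLA-B and HLA-C both held TGACG at 106 and 105 bases before the start, followed by CCAAT matches down to 56 bases before it. GGGGATTCC was found in HLA-B, at 177 bases before the start, and in none of the other 6 members with a window, and 0.285% of all 35116 promoters of the table hold it. GAAANNGAA was found in B2M, HLA-F, TAP1, TAP2 and TAPBP (5 of 7 members), against 8.11% of all promoters. It overlapped itself in B2M, TAP1 and TAPBP. HLA-B and HLA-C had 0 matches to this string. Interferon response sites with another spelling or spacing were not searched for. The 0 matches therefore do not show that HLA-B and HLA-C lack such a site. CCAAT was found in 5 of 7 (34.6% of all promoters), TGACG in 4 of 7 (24.6%) and GGGCGG in 4 of 7 (44.95%). A match is a string of letters and no measurement of binding.

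B2M was the member with the highest level per length in every group. Among the deep wells its TPM had a lowest value of 0, a median of 129 and a highest value of 706 in A375 #634413, and 36.3, 233 and 404 in A375 #634444. In the 15 A375 #634413 wells with at least 100000 protein coding counts the lowest value was 28.6 and the median 174. In Jurkat the corresponding values were 0, 209 and 528 with #634413 and 116, 244 and 551 with #634444. It was the highest of the 9 genes in 11 of 17 and 16 of 16 A375 wells and in 12 of 18 and 17 of 18 Jurkat wells. The mean ± SD was 226 ± 220 (n = 17), 225 ± 101 (n = 16), 235 ± 146 (n = 18) and 266 ± 102 (n = 18) in the same order. The ranges of the 4 groups overlapped, and the wells were more even with #634444, where the coefficient of variation was 0.450 in A375 and 0.385 in Jurkat, against 0.974 and 0.624 with #634413.

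**Figure D1:**
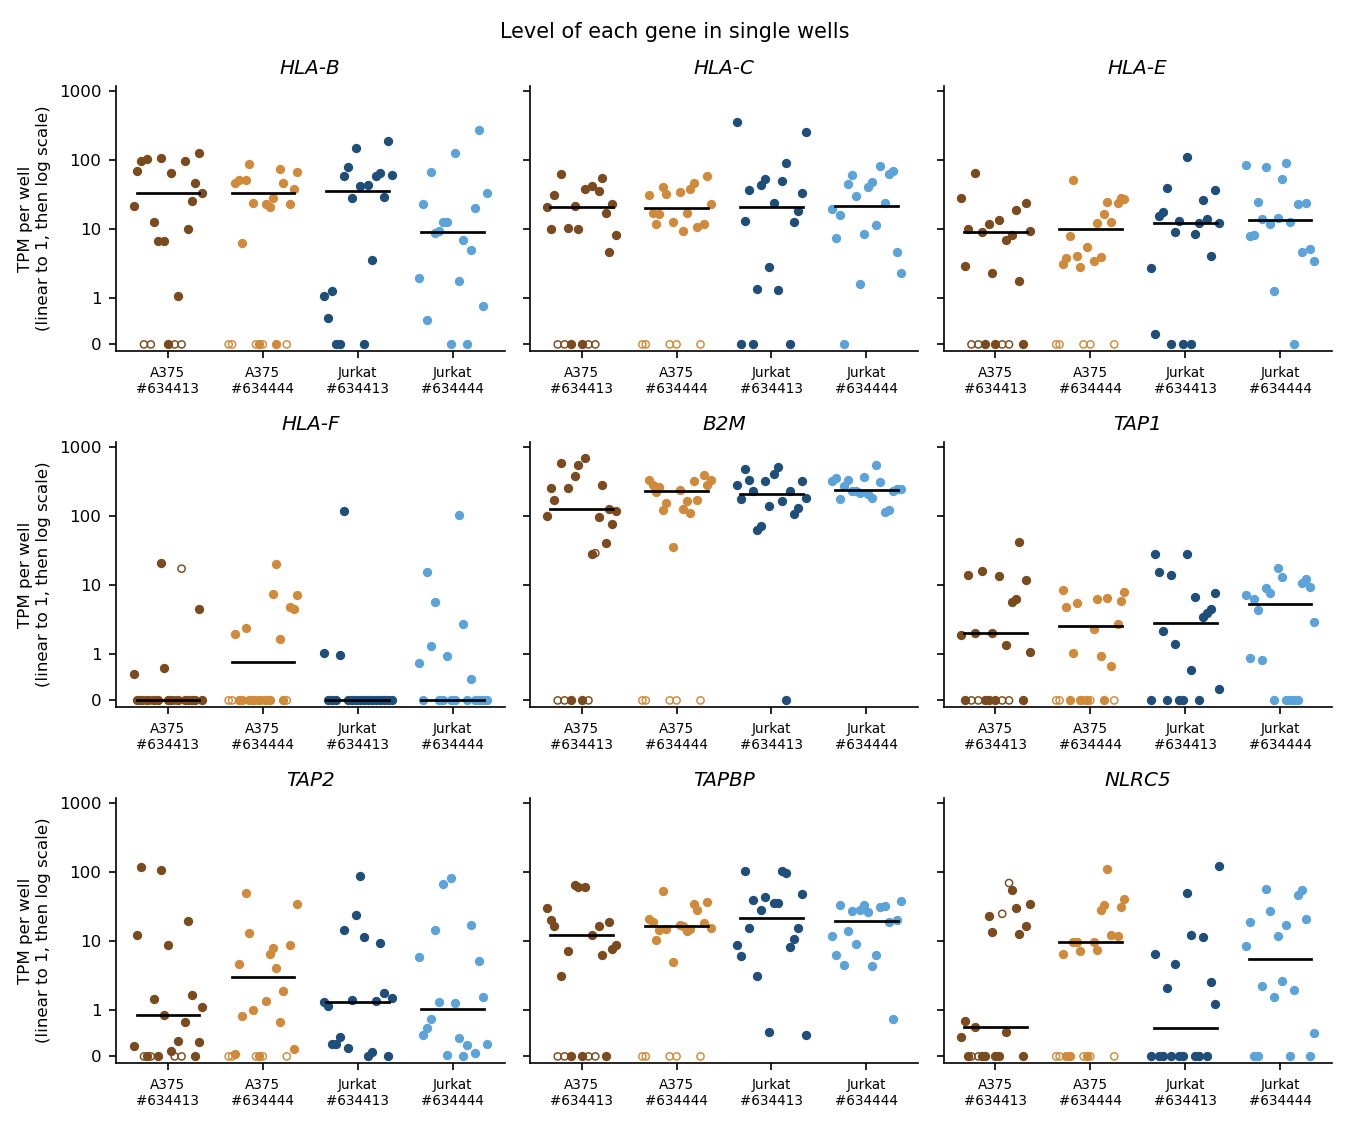
TPM of each gene (y axis, linear up to 1 and logarithmic above) in every well of the 4 groups (x axis). Filled points are deep wells, open points are wells under 25% of the median total, and lines are medians of the deep wells. B2M lies above the other genes in all groups, HLA-F is at 0 in most wells, and every gene overlaps between the groups.

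The classical heavy chains HLA-B and HLA-C, which present peptides to cytotoxic T cells, came next in both A375 groups, while TAPBP was above HLA-C in Jurkat #634413 and HLA-B was below HLA-C, TAPBP and HLA-E in Jurkat #634444. HLA-B had a median TPM of 33.5 (range 0 to 128) in A375 #634413, 33.3 (0 to 88.1) in A375 #634444 and 36.2 (0 to 192) in Jurkat #634413, but only 9.09 (0 to 277) in Jurkat #634444. The median of HLA-C was close to 21 TPM throughout, at 20.9, 20.4, 21.2 and 21.7 in the same order, although its highest well varied from 59.0 in A375 #634444 to 358 in Jurkat #634413. HLA-B and HLA-C share long stretches of sequence, so the division of reads between them by Kallisto is uncertain. They are also polymorphic, and how well the alleles of each line match the reference transcripts was not analysed here, so a fold between the lines may include a difference in how reads were assigned. The ratio of B2M to the sum of both heavy chains had a median of 1.496 and 1.855 on the log2 scale in A375 and of 1.156 and 2.537 in Jurkat (#634413 and #634444). B2M exceeded that sum in 11 of 15, 15 of 16, 12 of 16 and 17 of 18 deep wells with both above 0.

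HLA-E, a non-classical heavy chain and a ligand of the NK cell receptor CD94/NKG2A, had a median TPM of 9.27 and 10.1 in A375 and 12.5 and 13.6 in Jurkat, and wells between 0 and 114. It was below both classical chains in every group but Jurkat #634444, where it was above HLA-B. HLA-F, another non-classical chain, was at the edge of detection. It had 26.2, 36.99, 63.8 and 43.1 counts in all wells of A375 #634413, A375 #634444, Jurkat #634413 and Jurkat #634444 together, and less than 1 count in 13 of 17, 8 of 16, 15 of 18 and 10 of 18 deep wells. A single Jurkat #634413 well (replicate 6) held 61 of the 63.8 counts and 121 TPM. In Jurkat #634444 replicate 11 held 26 of the 43.1 counts and 105 TPM. Without these wells 2.77 and 17.1 counts were left in Jurkat.

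Of the loading genes, TAPBP was the most evenly detected. Its median TPM was 12.2 (range 0 to 65.1) and 16.9 (5.11 to 54.4) in A375 and 22.04 (0.464 to 107) and 19.8 (0.807 to 38.9) in Jurkat, and it was the only member with a count in all 36 Jurkat wells of both kits. The transporter genes were lower in every group. TAP1 had medians of 2.02 and 2.55 TPM in A375 and 2.86 and 5.40 TPM in Jurkat, and no well was above 42.8. TAP2 had medians of 0.900, 3.02, 1.34 and 1.06 TPM in the 4 groups, with wells as high as 118 in A375 #634413. That well (replicate 3) had 25.05 counts of TAP2, fewer than the 31.2 counts of replicate 17, which had 19.8 TPM, and a retained intron target of 274 bases carried 22.3% of the TAP2 counts in this group.

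NLRC5 was seen in 11 of 17 and 13 of 16 deep A375 wells and in 9 of 18 and 14 of 18 Jurkat wells with #634413 and #634444. Its median TPM was 0.637 and 0.611 with #634413 in A375 and Jurkat, and 9.77 and 5.65 with #634444. NLRC5 RNA was thus found in both lines, with 12.8% to 22.9% of its counts on protein coding transcripts (below). Its median was below those of TAP1 and TAP2 with #634413 and above both with #634444. The NLRC5 median was higher with #634444 in each line, whereas the summed counts differed little between the kits (below).

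Neighbours in the order of levels could often not be told apart. In Jurkat #634413, HLA-B was above TAPBP in 9 wells and below it in 9 wells, and TAPBP was above HLA-C in 10 of 18 wells. In A375 #634444, HLA-E was above NLRC5 in 7 of 16 wells although its median was higher. B2M was above the next gene in 13 of 17, 16 of 16, 15 of 18 and 18 of 18 wells of the 4 groups, and HLA-B was above HLA-C in 13 of 17 wells of A375 #634413. The median number of members with at least 1 count in a deep well was 7, 8, 7 and 8 of 9.

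Over all wells, B2M had at least 1 count in 76.2% of A375 wells with each kit (16 of 21, exact binomial interval 52.8% to 91.8%), in 94.4% of Jurkat #634413 wells and in 100% of Jurkat #634444 wells. HLA-F was found in 23.8% and 38.1% of A375 wells and in 16.7% and 44.4% of Jurkat wells. When every deep well was thinned to 203424 counts, the expected share for B2M was 87.96% and 99.99% in A375 and 94.4% and 100% in Jurkat, and that of HLA-F was 13.4%, 32.6%, 9.18% and 25.7%. In the deep wells alone, without thinning, B2M was found in 15 of 17 and 16 of 16 A375 wells. The 2 deep wells without it were replicates 8 and 11 of #634413, which held under 100000 protein coding counts. In the A375 #634413 wells above that limit it was found in 15 of 15.

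The second question was whether the 2 lines differed. Summed counts were scaled to CPM with TMM factors, and a gene was called when the groups were at least 2-fold apart, among genes with at least 50 summed counts. With #634413, 3 of 9 members were higher in Jurkat and 0 in A375, beside 26.4% and 32.1% of all 16411 genes tested. With #634444, 2 of 9 were higher in Jurkat and 0 in A375, beside 23.6% and 29.3% of 15659 genes. All 9 members passed the count minimum in each comparison. HLA-C was the only member called with both kits, where 16.9% of 14543 genes were called higher in Jurkat and 22.5% higher in A375. The median log2 fold (A375 over Jurkat) of the members was -0.42 with #634413 and -0.41 with #634444, against 0.05 and 0.01 for all genes, and 5 members were higher in Jurkat with both kits at any size.

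HLA-C, with the limit on allele matching given above, was 33.6 CPM in A375 and 81.8 CPM in Jurkat with #634413 (log2 fold -1.28, interval -1.43 to -1.13), and 33.4 and 67.0 CPM with #634444 (-1.01, -1.17 to -0.84). In single deep wells its CPM had a median of 25.04 (0 to 96.2) in A375 and 43.95 (0 to 511) in Jurkat with #634413, and 34.4 (8.98 to 80.002) and 46.5 (0 to 249.2) with #634444, so the groups overlapped widely and a Jurkat well was the higher one in 58.5% and 57.3% of pairs of 1 well from each line. The Jurkat total leaned on a few wells. Replicate 1 held 401 of the 1245 counts with #634413, and without it the log2 fold was -0.79. With #634444 the fold was just past the threshold, and leaving out any of 14 of 39 wells brought it under 2-fold, to -0.73 at the least. It was also just under 2-fold in the deep wells (-0.9987), with DESeq2 size factors (-0.96) and with total counts alone (-0.90), so the call of HLA-C with both kits holds in all wells with TMM factors and not in these settings. Its mean TPM over all wells was 18.8 in A375 and 55.6 in Jurkat with #634413, but 19.9 and 30.2 with #634444, under 2-fold. The mean CPM over wells with #634444 was 28.03 and 68.1. The median TPM of HLA-C in the deep wells was nearly level between the lines with each kit, as given above. When wells were grouped by blocks of 8 index numbers, HLA-C was between 27.04 and 38.1 CPM in the 3 A375 blocks and between 67.3 and 102 CPM in the 3 Jurkat blocks with #634413. With #634444 the blocks lay between 28.2 and 41.7 CPM and between 50.4 and 85.9 CPM, so these did not overlap with either kit. With #634413 HLA-C was the only member whose blocks did not overlap (1 of 9, beside 17.3% of all genes with the Jurkat blocks higher and 23.3% with the A375 blocks higher). With #634444 it was 3 of 9, HLA-C, B2M and TAP1, all higher in Jurkat, beside 23.4% of all genes in that direction and 26.5% in the other.

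TAP2 and HLA-F, called with #634413, each rested on 1 Jurkat well. TAP2 was 9.04 CPM in A375 and 27.1 CPM in Jurkat (log2 fold -1.58, -1.87 to -1.31), but replicate 10 held 271 of its 413 counts and the log2 fold was -0.14 without it. On the mean of TPM over wells it was higher in A375, at 0.58. With #634444 TAP2 was nearly level in both lines, at 11.96 and 11.85 CPM (0.01, -0.32 to 0.35). HLA-F was 1.61 and 4.19 CPM (-1.38, -2.11 to -0.71). Without replicate 6 of Jurkat, 2.77 counts were left there, under the floor of 3 counts, and the direction turned. With #634444 HLA-F was 2.65 and 3.53 CPM (-0.41, -1.08 to 0.26).

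TAP1 was called with #634444 only, at 15.9 CPM in A375 and 33.2 CPM in Jurkat (-1.06, -1.31 to -0.83), and was 23.9 and 22.7 CPM with #634413 (0.07, -0.14 to 0.28). Leaving out any of 8 of the 39 wells with #634444 took it under 2-fold, to -0.89 at the least, and so did total counts alone (-0.96). Deep wells of TAP1 with #634444 ranged from 0 to 40.3 CPM in A375 and from 0 to 79.7 CPM in Jurkat, with medians of 10.3 and 27.7. Whether the kits differed in the fold of TAP1 was not tested.

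B2M and HLA-E were higher in Jurkat with both kits, but by less than 2-fold. B2M was 165 and 201 CPM with #634413 (-0.29, -0.37 to -0.22) and 146 and 228 CPM with #634444 (-0.64, -0.72 to -0.56). In the deep wells with #634444, a Jurkat well was the higher one in 80.2% of pairs, the largest share among the 9 genes, and the 3 index blocks did not overlap (111 to 168 CPM in A375 and 199 to 263 CPM in Jurkat), whereas with #634413 they did (106 to 226 and 119.7 to 248 CPM). HLA-E was 38.997 and 52.3 CPM with #634413 (-0.42, -0.58 to -0.27), with its sign turned to 0.12 without Jurkat replicate 10. With #634444 it was 36.4 and 65.9 CPM (-0.85, -1.02 to -0.69), and passed 2-fold (-1.13) without A375 replicate 21.

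HLA-B, TAPBP and NLRC5 showed no steady direction or a small one in the matched counts. HLA-B was 52.9 and 66.02 CPM with #634413 (-0.32, -0.45 to -0.19) and 46.1 and 43.6 CPM with #634444 (0.08, -0.09 to 0.25). In pairs of deep wells the A375 well was the higher one for HLA-B in 52.3% with #634413 and 60.4% with #634444, although the sum with #634413 was higher in Jurkat. TAPBP was lower in A375 with #634413, at 57.6 and 101 CPM (-0.81, -0.92 to -0.69), and slightly higher with #634444, at 68.5 and 59.8 CPM (0.20, 0.05 to 0.34). NLRC5, the transactivator, was 15.9 and 18.9 CPM (-0.25, -0.49 to 0.00) and 15.04 and 17.6 CPM (-0.23, -0.50 to 0.06). Without Jurkat replicate 10, which held 108 of its 288 counts with #634413, NLRC5 was 0.34 in favour of A375.

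**Figure D2:**
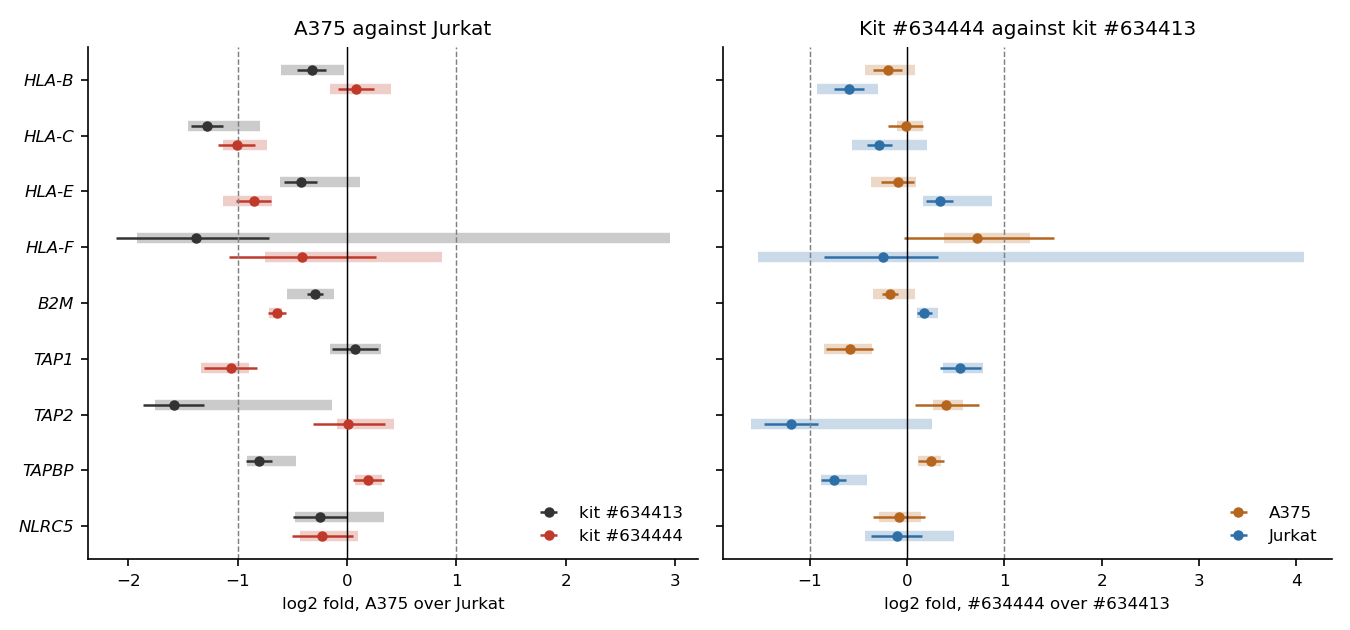
Log2 fold of summed, scaled counts (x axis) for each gene (y axis), for A375 over Jurkat (left) and kit #634444 over kit #634413 (right). Points carry 95% counting intervals, pale bands span the values when each well is left out in turn, and dashed lines mark 2-fold. HLA-C lies left of or next to the 2-fold line with both kits, and the bands of HLA-F and TAP2 are far wider than their counting intervals.

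The kits were compared within each line. In A375 0 of 9 members were 2-fold apart in either direction, beside 9.14% of 16337 genes higher with #634444 and 9.77% higher with #634413, and the members lay between -0.59 (TAP1) and 0.72 (HLA-F) on the log2 scale of #634444 over #634413. In Jurkat 1 member, TAP2, was higher with #634413 (-1.19, -1.48 to -0.92) and none with #634444, beside 14.8% and 12.1% of 13827 genes. The value of TAP2 was 0.25 without Jurkat #634413 replicate 10, the same well as above. HLA-F went from 0.72 to 1.26 in A375 when #634413 replicate 9 was left out, and from -0.25 to -1.53 in Jurkat without #634444 replicate 11. TAPBP (-0.75, -0.88 to -0.62) and HLA-B (-0.60, -0.75 to -0.45) were lower with #634444 in Jurkat, and TAP1 (0.55, 0.34 to 0.76) was higher.

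Which transcripts carried the counts differed between the genes. HLA-E and TAP1 had most of their counts on protein coding transcripts, between 71.9% and 85.4% for HLA-E and between 65.2% and 93.3% for TAP1, with the rest on retained intron transcripts. HLA-B had 61.2%, 68.3% and 63.1% on protein coding transcripts in A375 #634413, A375 #634444 and Jurkat #634444. In Jurkat #634413 it had only 31.9%, with 68.1% on retained introns, and 23.7% of all its counts there came from 1 retained intron transcript seen in 3 wells. HLA-C had between 63.04% and 82.7% on protein coding transcripts, and its shorter coding transcript HLA-C-204 (782 bases) took 46.6%, 29.4%, 44.5% and 3.6% of its counts in the 4 groups. NLRC5 had 12.8% to 22.9% on protein coding transcripts and 43.7% to 60.8% on retained introns. In Jurkat #634413, 95.7% of the HLA-F counts fell on HLA-F-229, a transcript of 489 bases with no defined coding sequence, in 1 well.

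B2M had at most 0.923% of its counts on a transcript that GENCODE v44 classes as protein coding and between 91.04% and 95.98% on transcripts classed as nonsense-mediated decay, chiefly B2M-209 (604 bases; 40.1%, 67.6%, 47.01% and 67.2%) and B2M-201 (732 bases; 41.4%, 17.6%, 30.9% and 25.02%). These classes are those of v44, while the reads were quantified on Ensembl v91, and 4356 of 200206 Ensembl targets had no entry in v44. Targets of that kind lay beside or between the B2M targets in the deposited order and held 5512 counts, against 10562 on the matched B2M targets. The corresponding values were 2386 against 871 for TAP2, 1853 against 3077 for HLA-C, 753 against 3041 for HLA-B, 370 against 4159 for TAPBP and 24.3 against 972 for NLRC5. Their gene was not identified here, so levels of these members may be too low. With them added, the log2 fold of HLA-C between the lines was -1.79 and -1.59, that of TAP2 with #634413 was -0.50, no longer past 2-fold, and TAPBP with #634413 reached -1.01. HLA-B became -0.81 and -0.23, so that it was higher in Jurkat with both kits, and B2M became -0.17 and -0.24, closer to level.

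**Figure D3:**
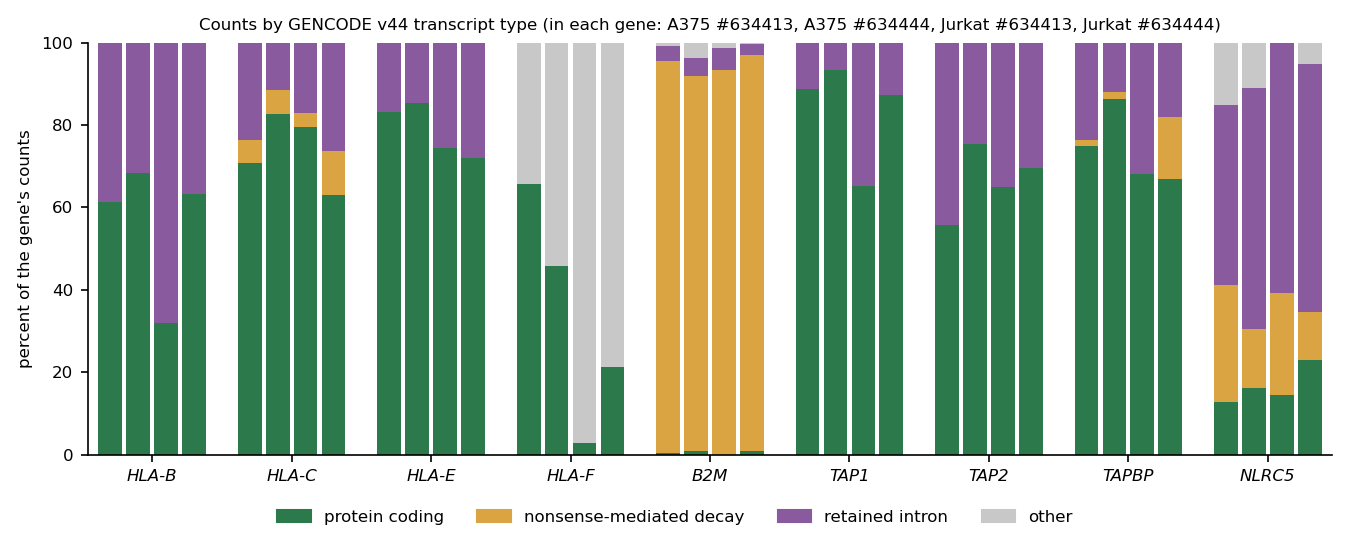
Share of each gene's summed counts (y axis, percent) by GENCODE v44 transcript type. The 4 bars of each gene are A375 #634413, A375 #634444, Jurkat #634413 and Jurkat #634444. B2M is almost wholly on transcripts of the nonsense-mediated decay class, NLRC5 has its largest share on retained introns (43.7% to 60.8%), and HLA-B in Jurkat #634413 has 31.9% on protein coding transcripts.

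Across the deep wells of a group, the log2(CPM + 1) of 7 members (all but HLA-F and NLRC5, which were too sparse) was compared by Pearson's r. In A375 #634413 20 of 21 pairs of members were above 0, with a median r of 0.51 and a highest r of 0.90 for HLA-C with HLA-E. In A375 #634444 the median was 0.16 (17 of 21 above 0), and in Jurkat it was 0.03 and -0.07 (11 and 10 of 21 above 0). In A375 #634413 the members also followed depth, with an r to the log2 total count of 0.69 for HLA-C, 0.72 for HLA-E, 0.68 for TAPBP and 0.63 for B2M, while in A375 #634444 these values were -0.03, -0.37, -0.25 and 0.26. Replicates 8 and 11 of A375 #634413 are among its 17 deep wells, with 11217 and 29255 protein coding counts. Both had 0 counts of B2M, HLA-C and HLA-E. The part of depth and of these wells in the r values was not tested. HLA-B and B2M had an r of 0.65 and 0.63 in A375 with the 2 kits, and of -0.14 and -0.22 in Jurkat.

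For each member, the 3 genes with the highest mean r over both kits across wells gave 21 genes for A375 (17 and 16 wells) and 21 for Jurkat (18 and 18 wells), with 0 members among them. For B2M in A375 they were QARS1 (mean r 0.90), EPS15 (0.88) and PCYOX1 (0.86), and in Jurkat TET3 (0.66), ERP44 (0.66) and PPP6C (0.65). TAPBP in A375 was followed by LRPAP1 (0.79), CD63 (0.79), a protein of lysosomes and melanosomes, and CPD (0.79). For HLA-B in Jurkat the list was TROAP (0.66), PARP9 (0.63), an interferon-stimulated gene, and BUB1 (0.62). The mean r of these genes lay between 0.65 and 0.90 in A375 and between 0.50 and 0.66 in Jurkat, and they are the highest of 8365 and 6631 genes searched. The A375 #634413 wells used here include replicates 8 and 11, and the part of these wells was not tested.

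Several genes that work around the 9 members lay further apart between the lines than any member did. Of 9 proteasome genes, 5 were at least 2-fold higher in Jurkat with both kits and 0 in A375. These were the 3 subunits of the immunoproteasome, the form of the proteasome that favours class I peptides, and both chains of its activator PA28. PSMB8 was 21.1 CPM in A375 and 123 CPM in Jurkat with #634413 (5.84-fold) and 24.95 and 105 CPM with #634444 (4.22-fold). PSMB10 was 5.08-fold and 8.12-fold higher in Jurkat, PSME1 4.26-fold and 5.09-fold, and PSME2 4.78-fold and 6.42-fold. PSMB9, which shares its promoter region with TAP1, was 2.85-fold and 4.48-fold higher. The constitutive subunits PSMB5, PSMB6 and PSMB7 lay between 1.53-fold higher in Jurkat and 1.24-fold higher in A375 with #634413, and PSMB6 was 2.13-fold higher in Jurkat with #634444.

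Of 8 loading and trimming genes, 2 were higher in Jurkat with both kits and 0 in A375. ERAP2, an aminopeptidase that trims peptides, was 7.60 CPM in A375 and 130 CPM in Jurkat with #634413 (17.1-fold) and 7.89 and 110 CPM with #634444 (13.9-fold). CALR, the chaperone calreticulin, was 2.23-fold and 2.36-fold higher in Jurkat. ERAP1 was within 1.32-fold with both kits. The chaperone gene CANX was 1.88-fold and 1.56-fold higher in A375.

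Among 22 regulators of class I transcription, 3 were higher in Jurkat with both kits and 1 in A375. NFYA, a subunit of the factor that binds CCAAT, was 6.79-fold and 6.32-fold higher in Jurkat. IRF1, an activator of class I genes, was 7.81-fold and 2.50-fold higher, and IFNAR2, a chain of the type I interferon receptor, 8.49-fold and 3.02-fold. CIITA, the NLRC5 relative that drives class II genes, was 13.5 CPM in A375 and 0.657 CPM in Jurkat with #634413 (20.6-fold) and 35.9 and 2.88 CPM with #634444 (12.5-fold). RELA and NFKB1 were below 2-fold with both kits.

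The interferon-stimulated genes showed no common direction, with 4 of 18 tested genes higher in A375 and 4 higher in Jurkat with both kits. GBP2 had 283 and 310 counts in A375 and 0 in Jurkat with both kits, so that it was at least 88.4-fold and 90.6-fold higher in A375 (floor of 3 counts over the group). It passed the count minimum through A375 alone. IFITM3 was 62.4-fold and 33.2-fold higher in A375, and MX1 13.03-fold and 4.58-fold. BST2 was 5.32-fold and 4.71-fold higher in Jurkat. The background shares given above for both kits (22.5% and 16.9%) apply to these lists as well, and each of the 6 lists had the same numbers of calls with both kits in the deep wells.

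Class II genes, which present peptides to helper T cells, were found in A375 and were low in Jurkat. There, 0 of 11 reached the count minimum over both kits together. With #634413, 7 of 8 tested genes were higher in A375 and 0 in Jurkat, and with #634444 5 of 7 and 0. The other tested genes were under 2-fold apart and so had counts in Jurkat as well. HLA-DRB1 had 25 counts in 1 Jurkat #634444 well. Of 7 genes tested with both kits, 5 were higher in A375. CD74, the invariant chain, had 3578 and 2701 counts in A375 and 0 and 3 counts in Jurkat, so that it was at least 1118-fold higher with #634413 and 790-fold higher with #634444 (log2 fold 9.63, counting interval 8.08 to 11.90). HLA-DRA was at least 114-fold and 122-fold higher in A375, and HLA-DPA1 at least 155-fold and 111-fold. CD74, HLA-DRA and HLA-DPA1 passed the count minimum through A375 alone, so the share of class II genes called is partly set by that filter. Among 14 tested class I related genes and NK ligands, 8 were higher in Jurkat and 3 in A375. They include the CD1 family, lipid-presenting molecules that pair with beta-2-microglobulin: CD1E had 4570 and 4717 counts in Jurkat and 0 in A375 (at least 1626-fold and 1793-fold), and CD1A was at least 422-fold and 456-fold higher. CD1E and CD1A passed the count minimum through Jurkat alone. The NK ligand MICB was 11.1-fold and 8.41-fold higher in Jurkat, and MR1 differed by 1.06-fold and 1.03-fold.

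**Figure D4:**
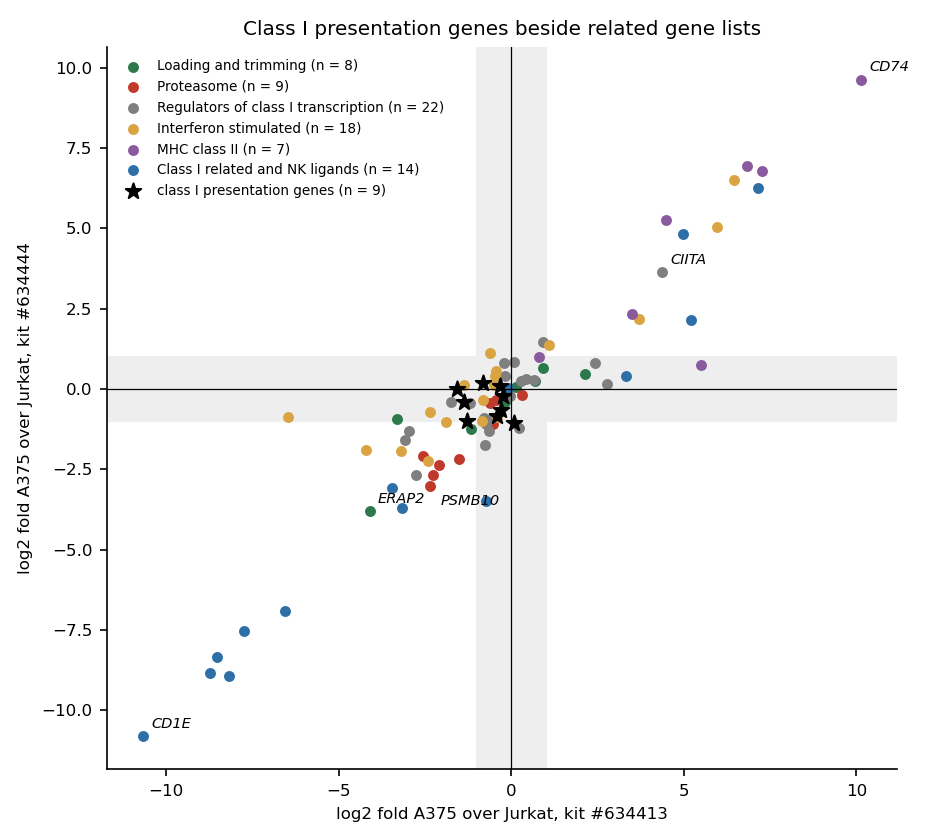
Log2 fold of A375 over Jurkat with kit #634413 (x axis) and with kit #634444 (y axis) for the 9 class I presentation genes (stars) and for the genes of 6 related lists that had at least 50 summed counts with both kits (points). Shaded bands mark less than 2-fold, and folds against a group under 3 counts are bounds set by the floor. The stars lie near the centre, while CD74 and CIITA lie at the A375 end and CD1E and ERAP2 at the Jurkat end.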

How the data were processed

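Single cells of A375 and Jurkat were sequenced as total RNA libraries, and the 78 wells were grouped by the line and kit in their labels. The authors trimmed reads with cutadapt 1.16 and quantified Ensembl v91 transcripts with Kallisto 0.43.1, and STAR 2.5.3 is also named. The deposited tables hold estimated counts (expected counts, not normalized) and deposited TPM per transcript, computed by Kallisto from counts and effective lengths. Kallisto splits reads shared by near-identical transcripts, which touches the HLA genes.

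Transcripts were assigned to genes with GENCODE v44, and 195850 of 200206 matched, while the unmatched 5.21% of counts outside the rDNA unit stayed in the totals only. Counts were summed per gene and group, rounded for scaling factors and intervals, and scaled with TMM factors (edgeR 4.0.16, R 4.3.3) to CPM of counts outside the rDNA unit and spikes. A gene was called at 2-fold with at least 50 summed counts, and groups under 3 counts were set to 3. Intervals are 95% exact Poisson and binomial limits. No test was run, since a group is 1 sample. Copies on alternate haplotypes could not be told from other targets, so no such copies were added. Total counts per well ranged from 909 to 2567265, and 0 pairs of wells were identical. The fold procedure was tested on simulated group sums with counting error only and no spread between wells. That test therefore cannot speak to folds that rest on a few wells. Alternatives were DESeq2 1.42.0 size factors, totals alone, means and medians over wells, TPM, subsets of wells, other folds and no count minimum. Named genes are the members, up to 4 genes per list that were 2-fold apart in the same direction with both kits, ordered by the smaller fold, and the 3 genes most like each member. PSMB5, PSMB6, PSMB7, PSMB9, ERAP1, CANX, RELA, NFKB1, HLA-DRB1, MICB and MR1 were added after their values were seen. Members and lists were chosen with earlier results of these data known.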

Additional observations from a re-analysis of the deposited data

How the results depend on the processing

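Members higher in Jurkat with #634444 numbered 2 with TMM, 1 with DESeq2 size factors and 0 with total counts alone, which shifted the median of all genes to 0.13 (#634413) and 0.12 (#634444), so that folds lay about 0.1 further towards A375. With a count minimum of 1 the calls did not change. Using the deep wells, or the 67 wells with at least 100000 protein coding counts, gave 1 member higher in Jurkat with #634444 and 1 higher with #634444 in A375 in each case. With mean CPM over wells, 5 members were higher in Jurkat with #634444, 1 was higher with #634413 in A375, and HLA-F with #634413 was reversed to 0.21. With median CPM, 1 member was higher in A375 and 5 in Jurkat with #634413, and 2 were higher with #634444 in each line. With mean TPM, 2 members in A375 and 0 in Jurkat were higher with #634413, and TAP2 was reversed between the lines with #634413 (0.58) and between kits in Jurkat (0.37). At 1.5-fold, 4 members were higher in Jurkat with #634444, 1 in A375 was higher with each kit, and 3 in Jurkat were higher with #634413. At 4-fold none remained higher in Jurkat with either kit (0 and 0), nor with #634413 in Jurkat (0). Adding the unmatched targets, an alternative chosen after seeing the data, left 0 members higher with #634413 in Jurkat. With at least 5 counts, 5 rather than 8 members were found in at least 50% of A375 #634413 wells. Of 284 member folds under alternatives, 197 stayed within the counting interval of the reported value, 84 moved outside it and 3 that had passed 2-fold changed sign. The cause was not tested.

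Leaving out each well in turn, also chosen after seeing the data, gave 0 to 1 members higher in A375 and 2 to 3 higher in Jurkat with #634413, and 0 to 0 and 0 to 3 with #634444. Between kits it gave 0 to 1 higher with #634444 and 0 to 0 higher with #634413 in A375, and 0 to 1 and 0 to 2 in Jurkat. HLA-F with #634413 became 2.95 without Jurkat replicate 6, a value set by the floor of 3 counts, and TAP2 between kits in Jurkat became 0.25 without #634413 replicate 10. No value is given for targets on the primary chromosomes alone, since alternate-haplotype copies were not told apart here. No paired analysis was possible because the replicate numbers were given in accession order and tie no wells together. Genes with few counts per well, such as HLA-F, are limited by depth, and intervals omit the spread between cells.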
